A study of Homo sapiens with 12 samples.

Results

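The genes described here are the 5 human Schlafen genes listed for both cell lines, *SLFN5*, *SLFN11*, *SLFN12*, *SLFN12L* and *SLFN13*, out of 23533 gene identifiers in either table. They were taken by symbol. The family was picked because *SLFN11* fell among the most in MEC1 cells with high UGT2B17, so the MEC1 contrast served the choice and its values for these genes are given as a description with no test. RNA sequencing was done on 2 malignant B-cell lines related to chronic lymphocytic leukaemia, MEC1 and JVM2, each as a low (CTRL) and a high (2B17) UGT2B17 population with 3 biological replicates, 12 libraries in all. UGT2B17 is an enzyme that conjugates androgens and some drugs to glucuronic acid. MEC1-2B17 and JVM2-2B17 cells carried the pcDNA6 vector with the human *UGT2B17* coding sequence and were kept in blasticidin. JVM2-CTRL cells carried the empty pcDNA6 vector, also under blasticidin, whereas MEC1-CTRL cells carried an shRNA that stably represses *UGT2B17* and were kept in puromycin. The MEC1 populations therefore differ in vector and antibiotic as well as in *UGT2B17*, and these cannot be told apart. Whether a population derives from 1 clone is not given in the sources used here.

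Schlafen proteins share an N-terminal fold found in RNA-cutting enzymes, and the longer members also carry a helicase-like C-terminal part. Many are induced by type I interferon. SLFN11 is recruited to stressed replication forks, blocks their progress and, by cleaving transfer RNAs, limits protein synthesis, and cells that express it are more sensitive to topoisomerase poisons, platinum agents and other drugs that damage DNA. SLFN13 is a nuclease of transfer and ribosomal RNA. SLFN5 has been described as a nuclear regulator of interferon-driven transcription. SLFN12 is an RNA-cutting enzyme stabilised by small molecules that glue it to the phosphodiesterase PDE3A, and *SLFN12L* is its less studied paralogue.

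All 5 genes lie in 1 cluster on chromosome 17 in hg38 (GENCODE annotation). *SLFN5* is the only one on the plus strand (chr17:35243071-35273655), followed on the minus strand by *SLFN11* (chr17:35350305-35373701), *SLFN12* (chr17:35410922-35433283), *SLFN13* (chr17:35435096-35448837) and *SLFN12L* (chr17:35464249-35537678). The cluster spans 294.6 kb. The sequence around the start is shown for each member that had a promoter entry, whatever its change in either line. Of the 5 members, 3 had an entry in the RefSeq promoter table (GRCh38.p14), each 300 bases from 250 before to 50 after the start. These are SLFN11 (chr17:35373572-35373871), SLFN12 (chr17:35433125-35433424) and SLFN12L (chr17:35537629-35537928), all on the minus strand and written 5′ to 3′, with motif matches in capitals.
SLFN11: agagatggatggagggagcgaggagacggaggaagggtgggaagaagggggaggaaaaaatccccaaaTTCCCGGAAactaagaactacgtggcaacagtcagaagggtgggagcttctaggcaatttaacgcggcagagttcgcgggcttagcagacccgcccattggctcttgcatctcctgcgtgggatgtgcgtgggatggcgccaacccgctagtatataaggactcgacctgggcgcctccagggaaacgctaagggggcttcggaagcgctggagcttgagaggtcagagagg
SLFN12: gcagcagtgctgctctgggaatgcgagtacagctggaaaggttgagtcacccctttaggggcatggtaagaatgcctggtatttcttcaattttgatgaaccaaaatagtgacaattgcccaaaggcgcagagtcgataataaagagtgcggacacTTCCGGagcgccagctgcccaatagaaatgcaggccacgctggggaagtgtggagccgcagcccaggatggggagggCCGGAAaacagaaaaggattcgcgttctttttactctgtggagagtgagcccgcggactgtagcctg
SLFN12L: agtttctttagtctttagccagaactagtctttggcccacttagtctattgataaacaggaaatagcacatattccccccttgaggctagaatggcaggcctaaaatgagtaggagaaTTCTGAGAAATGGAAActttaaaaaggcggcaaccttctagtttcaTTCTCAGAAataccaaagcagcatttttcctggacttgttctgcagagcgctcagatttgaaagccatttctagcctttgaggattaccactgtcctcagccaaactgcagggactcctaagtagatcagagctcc
The motifs searched on both strands were GAAANNGAAA, the core of the interferon-stimulated response element; TTCNNNGAA, the interferon gamma-activated site bound by STAT factors; CCGGAA, the core of many ETS factor sites; and TATAAA. They occur in 3.57%, 7.66%, 17.2% and 11.5% of the 35116 promoters of that length. The *SLFN11* promoter held a TTCNNNGAA match whose first base lies at -182 from the start, overlapping a CCGGAA match at -179. The *SLFN12* promoter held CCGGAA matches at -94 and -17. The *SLFN12L* promoter held the GAAANNGAAA match, at -126, overlapping a TTCNNNGAA match at -132, with a further TTCNNNGAA match at -86. No TATAAA match was found in these windows. CpG dinucleotides numbered 18 in *SLFN11*, 13 in *SLFN12* and 2 in *SLFN12L*, beside a median of 14 over all promoters. A match describes letters and not a bound site.

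Library totals ran from 31762649 to 37744991 counts in MEC1 and from 8809179 to 11231330 in JVM2, so low genes are measured less precisely in JVM2. *UGT2B17* itself rose by 0.94 (SE 0.069) in MEC1 and by 0.48 (SE 0.11) in JVM2 on the log2 scale, and its CPM did not overlap between the arms of either line. All 8 B-cell markers were measured in both lines. By edgeR's quasi-likelihood test (adjusted p below 0.05), 3 rose and 5 fell in MEC1, where 41.7% of all tested genes passed in either direction. In JVM2, 4 rose and 2 fell, where 29.3% passed. *MS4A1* (CD20) had a log2 fold change of -0.58 in MEC1 and 0.40 in JVM2. The 8 markers summed to 2545 to 2605 CPM in MEC1-CTRL, 2360 to 2432 in MEC1-2B17, 1852 to 1869 in JVM2-CTRL and 1759 to 2036 in JVM2-2B17. CD3D was in neither table. No other T-cell marker passed 14 counts, except *TRBC2*, which read 36.2 to 40.8 CPM in MEC1. Monocyte markers summed to at most 1.34 CPM in MEC1 and 1.69 in JVM2, and fibroblast and epithelial markers to 18.8 to 22.8 CPM in JVM2. In MEC1 the latter summed to 2.44 to 2.92 CPM in CTRL and 3.82 to 4.98 in 2B17, where the epithelial marker *EPCAM* rose by 1.23 on the log2 scale. The part of these markers in the results on Schlafen genes was not tested. Replicates of a population differed by more than counting noise in all 12 pairs, with a chi-square of 2.36 to 9.67 per gene. JVM2-2B17 replicate 2 stood apart, at 9.17 and 9.43 from its replicates, which were 2.36 from each other. MEC1-CTRL replicate 3 did so too, at 9.67 and 7.77 against 2.74.

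The baseline profile of the family differed between the lines. Levels are in CPM (read counts scaled to the TMM-adjusted library total) per kilobase of merged exons, which allows genes of unequal length to be compared. MEC1-CTRL cells held mostly *SLFN5*, at 7.83 ± 0.50 (SD, n = 3). *SLFN13* followed at 1.53 ± 0.077, *SLFN11* at 0.720 ± 0.070, *SLFN12L* at 0.557 ± 0.033 and *SLFN12* at 0.158 ± 0.020. No neighbours in this order overlapped between libraries. In JVM2-CTRL cells *SLFN13* led at 10.97 ± 0.48, ahead of *SLFN5* at 8.95 ± 0.42, *SLFN12* at 5.49 ± 0.19, *SLFN11* at 4.84 ± 0.13 and *SLFN12L* at 1.68 ± 0.030, again without overlap between neighbours. Set side by side, the JVM2-CTRL level was 34.9 times the MEC1-CTRL level for *SLFN12*, 7.16 times for *SLFN13*, 6.71 times for *SLFN11*, 3.01 times for *SLFN12L* and 1.14 times for *SLFN5*. The lines come from separate tables and no test was made between them. Sequencing was done at 2 sites, and which libraries went to which is not given in the sources used here, so the site and the line may not be separable. *SLFN14*, the remaining human Schlafen gene of the cluster, was in neither table, and *SLFNL1*, a Schlafen-like gene on chromosome 1, had 3 to 10 counts per library in MEC1 and was too low to test.

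**Figure D1:**
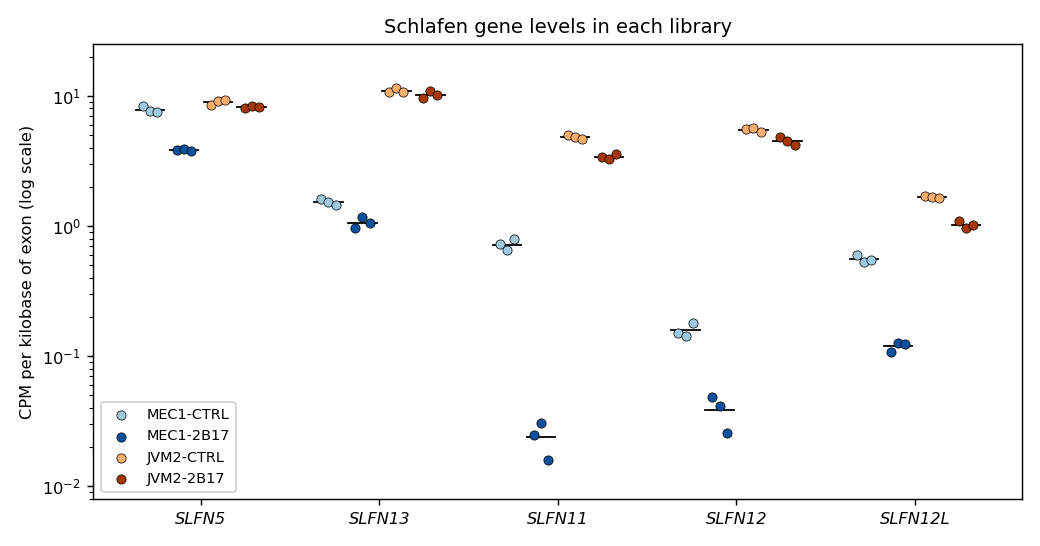
CPM per kilobase of merged exons of the 5 Schlafen genes (log axis) in each of 12 libraries, with 1 point per library and a bar at the mean of 3 replicates. MEC1-2B17 libraries sit below MEC1-CTRL for every gene, with *SLFN11* between 0.0158 and 0.0307. The JVM2 arms differ less than the MEC1 arms and overlap only for *SLFN13*.

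In MEC1 cells all 5 genes were lower in the 2B17 population, *SLFN11* by far the most. *SLFN11* had 164, 134 and 157 counts in the MEC1-CTRL libraries and 5, 6 and 3 in the MEC1-2B17 libraries. In CPM it went from 4.31 ± 0.42 to 0.142 ± 0.045 (SD, n = 3), which the fit put at -4.88 (SE 0.23) on the log2 scale. Pooled over replicates, MEC1-CTRL held 30.2 times the MEC1-2B17 level, with a 95% counting interval of 17.8 to 55.7 that covers counting error only. This was the seventh deepest fitted fall among the 16581 genes tested (rank 7). Among the others, *SLFN12L* and *SLFN12* were lowered more than *SLFN5*, and *SLFN13*, which lies between *SLFN12* and *SLFN12L*, the least. In bulk RNA, fewer cells that express a gene and less of its RNA per cell cannot be told apart.

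*SLFN12L* had 308, 248 and 249 counts in MEC1-CTRL and 50, 56 and 54 in MEC1-2B17, a fitted log2 change of -2.22 (SE 0.12). *SLFN12* was close to the limit of measurement, with 21, 18 and 22 counts against 6, 5 and 3. Its log2 fold change was -1.99 (SE 0.35), and the pooled CTRL level was 4.05 times the 2B17 level, with a counting interval of 2.24 to 7.83. *SLFN5*, the most abundant member, had 3414, 2785 and 2660 counts against 1381, 1368 and 1285, a log2 fold change of -1.02 (SE 0.047). *SLFN13* had 573, 488 and 453 counts against 304, 358 and 310, a log2 fold change of -0.53 (SE 0.078). The arms did not overlap in CPM for any of the 5, but in how many of all genes the arms lay apart was not counted. The median log2 fold change of the 5 was -1.99, beside 0.0026 over all genes tested. Of all genes tested in MEC1 by edgeR's quasi-likelihood test, 41.7% passed the threshold (adjusted p below 0.05), 20.0% as higher and 21.6% as lower. Since the family was chosen on this contrast, its members were not counted against that share. Without MEC1-CTRL replicate 3 the log2 fold changes of the 5 ran from -4.81 for *SLFN11* to -0.56 for *SLFN13*.

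**Figure D2:**
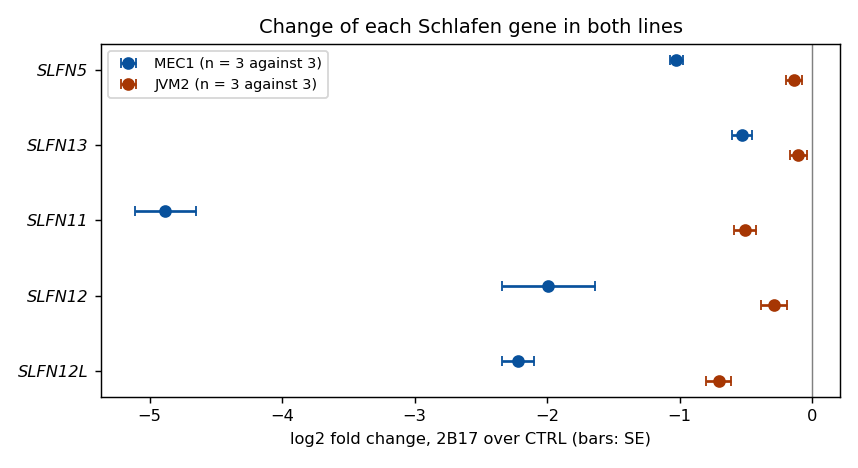
Fitted log2 fold change of 2B17 over CTRL for each Schlafen gene (bars: SE, 3 libraries against 3) in MEC1 and JVM2. All 10 values are below 0, from -4.88 for *SLFN11* in MEC1 to -0.10 for *SLFN13* in JVM2.

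The summed level of the 5 genes per kilobase went from 10.8 ± 0.60 in MEC1-CTRL to 5.09 ± 0.18 in MEC1-2B17 (SD, n = 3), and its make-up shifted. *SLFN11* supplied 6.24% to 7.54% of the sum in the MEC1-CTRL libraries and 0.316% to 0.580% in the MEC1-2B17 libraries. *SLFN12L* went from 5.16% ± 0.087 to 2.35% ± 0.16. *SLFN13*, the member that changed least, went up as a share from 14.2% ± 0.34 to 20.8% ± 1.4, and *SLFN5* supplied most of the sum in both arms, 72.5% ± 0.84 and 75.6% ± 1.4. In MEC1-2B17 the order was *SLFN5* at 3.85, *SLFN13* at 1.06, *SLFN12L* at 0.120, then *SLFN12* at 0.0386 and *SLFN11* at 0.0237 CPM per kilobase, of which the ranges of *SLFN12* and *SLFN11* overlapped. In JVM2 the sum went from 31.9 ± 0.82 to 27.3 ± 0.53.

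**Figure D3:**
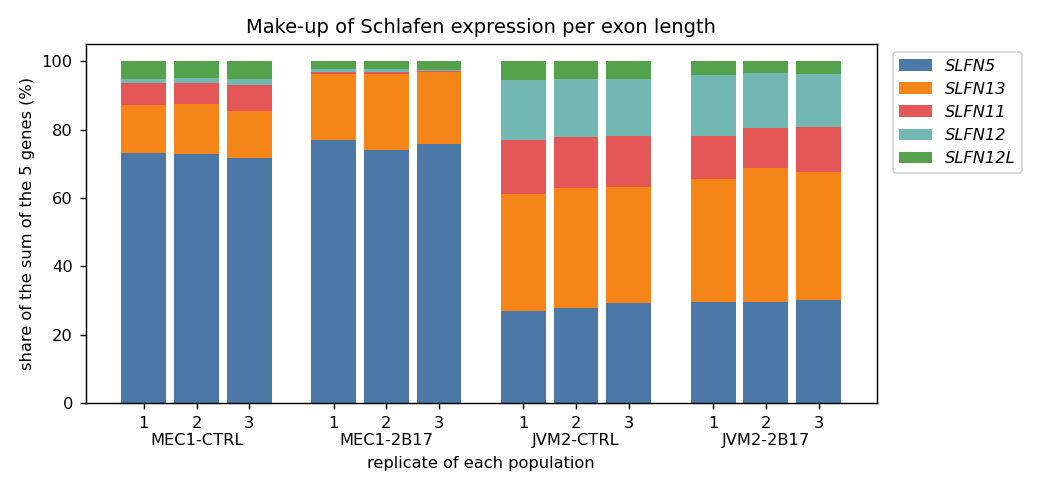
Share (%) of the summed CPM per kilobase of the 5 Schlafen genes supplied by each gene, with 1 stacked bar per library. *SLFN11* shrinks from 6.24% to 7.54% in MEC1-CTRL to at most 0.580% in MEC1-2B17, and *SLFN5* and *SLFN13* hold most of the sum in every library.

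JVM2 cells did not serve the choice, and there 3 of the 5 genes fell with high UGT2B17: *SLFN12L*, *SLFN11* and *SLFN12*. Of all 13021 genes tested in JVM2, 29.3% passed the threshold, 14.1% as higher and 15.3% as lower. The falls were smaller than the MEC1 differences. *SLFN12L* read 23.3, 22.8 and 22.5 CPM in the JVM2-CTRL libraries and 15.02, 13.2 and 13.8 in JVM2-2B17, so the arms lay well apart. Its log2 fold change was -0.70 (SE 0.095) with an adjusted p of 1.32e-04 by edgeR's quasi-likelihood test. *SLFN11* read 29.6, 29.1 and 28.1 CPM against 20.4, 19.6 and 21.2, again without overlap, a log2 fold change of -0.51 (SE 0.083) with an adjusted p of 6.42e-04 by the same edgeR test. On the linear scale JVM2-2B17 cells thus kept 0.705 of the *SLFN11* level of their controls, beside 0.0339 in MEC1.

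*SLFN12* fell less, from 20.4, 20.8 and 19.4 CPM to 17.7, 16.4 and 15.4 CPM, a log2 fold change of -0.29 (SE 0.096) with an edgeR adjusted p of 0.0407. That call was lost with DESeq2 (adjusted p = 0.151) and in edgeR without JVM2-CTRL replicate 1 (0.0999), 2 (0.125) or 3 (0.0776) or JVM2-2B17 replicate 3 (0.123), and it ran from 0.0277 to 0.151 over all alternatives. *SLFN5* read 90.3, 97.8 and 98.4 CPM against 85.4, 88.3 and 86.9, a difference that did not pass the test although the arms did not overlap, with a log2 fold change of -0.14 (SE 0.060) and an edgeR adjusted p of 0.105. *SLFN13* read 99.5, 107 and 100.02 CPM against 89.9, 102 and 94.1, and here the arms overlapped, with a log2 fold change of -0.10 (SE 0.065) and an edgeR adjusted p of 0.257. Without JVM2-2B17 replicate 2, *SLFN5* (adjusted p = 0.0400, edgeR) and *SLFN13* (0.0304, edgeR) passed too, so that all 5 were called. In that setting 4540 genes were called in all, beside 3821 with every library. Over the alternatives the edgeR or DESeq2 adjusted p ran from 0.0400 to 0.317 for *SLFN5* and from 0.0304 to 0.585 for *SLFN13*. The median of the 5 was -0.29, beside 0.00012 over all genes tested. In the two-sided exact permutation test of single genes, 3 libraries against 3 cannot go below p = 0.1, which was reached by each member except *SLFN13* (exact p = 0.3). The share of all genes that reached this minimum was not counted.

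To see how the members stood to each other, each gene's ratio to each other gene within a library was compared between the arms, 10 pairs per line. The 10 pairs share members, and how often pairs of other genes lie apart was not counted. In MEC1, 9 of 10 ratios lay apart between the arms, given as a description. The exception was *SLFN12* to *SLFN12L*, whose log2 ratio was -3.72 ± 0.20 in MEC1-CTRL and -3.57 ± 0.56 in MEC1-2B17. In JVM2, 7 of 10 ratios lay apart, each at the exact permutation minimum of p = 0.1 (0.143 after Benjamini-Hochberg adjustment over the 10 pairs). None passed 0.05, which this design cannot reach, so a change in the proportions was not shown. The largest shift in JVM2 was that of *SLFN12L* against *SLFN13*, which changed by -0.61 on the log2 scale, and *SLFN5* against *SLFN13* changed by -0.03 with overlapping arms.

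The annotation within 500 kb of the cluster holds 76 other genes, of which 23 could be tested in MEC1 and 17 in JVM2. In MEC1 most lower genes lay within the cluster or close beside it. Over the whole window, 7 were lower and 1 higher, where 21.6% and 20.0% of all tested genes passed in those directions. In JVM2, 4 were lower and 0 higher, where 15.3% and 14.1% did, by edgeR's quasi-likelihood test in both lines. Outside the cluster, 12 protein-coding genes were tested in MEC1, of which 1 was higher and 1 lower. The higher gene was *NLE1*, a ribosome assembly factor, with a log2 fold change of 0.39 (SE 0.043). The lower one was *CCL5*, a chemokine, at -0.60 (SE 0.053). The outer genes *RFFL*, *RAD51D* and *AP2B1* had log2 fold changes from 0.05 to 0.10 in MEC1 and did not pass the test. In JVM2, *CCL5* and *NLE1* did not pass, and the lower genes among 11 protein-coding neighbours were *LIG3*, a DNA ligase, at -0.29 (SE 0.084) and *TAF15*, an RNA-binding protein, at -0.57 (SE 0.13). The split into genes inside and outside the cluster was made after their values were seen.

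Inside *SLFN12L*, on its strand, lie 3 low-count genes that were tested in both lines, and all 3 were lower in MEC1. The lncRNA RP11-1094M14.5 had a log2 fold change of -2.10 (SE 0.31) in MEC1 and -1.24 (SE 0.29) in JVM2, past the test in both. The pseudogene *TOMM20P2* had 38, 43 and 29 counts against 3, 3 and 3 in MEC1, a ratio of 11.4 (95% counting interval 5.77 to 25.5), and fell by 0.85 on the log2 scale in JVM2. RP11-686D22.10 had -2.29 (SE 0.41) in MEC1 and -0.60 (SE 0.33) in JVM2, where it did not pass. It overlaps *SLFN12L* exons by 560 bases, so its reads cannot be told from those of *SLFN12L*. RP11-1094M14.5 and *TOMM20P2* share no exon bases with *SLFN12L*, but reads of unspliced *SLFN12L* RNA could not be told from theirs. Between *SLFN11* and *SLFN12*, RP11-686D22.8 and RP11-686D22.7 were tested in JVM2 only. They had -0.22 (SE 0.24) and -0.30 (SE 0.27) and did not pass. Next to the cluster in MEC1, the lncRNA RP11-799D4.4, beside the start of *SLFN5* on the other strand, was lower at -1.02 (SE 0.21), the *SLFN5* value to 2 decimals. RP11-1094M14.12, on the far side of *SLFN12L*, was lower too, with 14, 13 and 13 counts against 1, 3 and 0, a ratio of 9.29 (3.36 to 35.7). RP11-1094M14.11 (SNHG30) was lower at -0.35 (SE 0.073). Whether the counting used strand is not given in the sources used here. Of 50-base stretches of *SLFN11* transcripts, 9.69% also occur in *SLFN13*, and 12.8% of those of *SLFN12L* occur in some other gene, so reads there could be split or dropped.

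**Figure D4:**
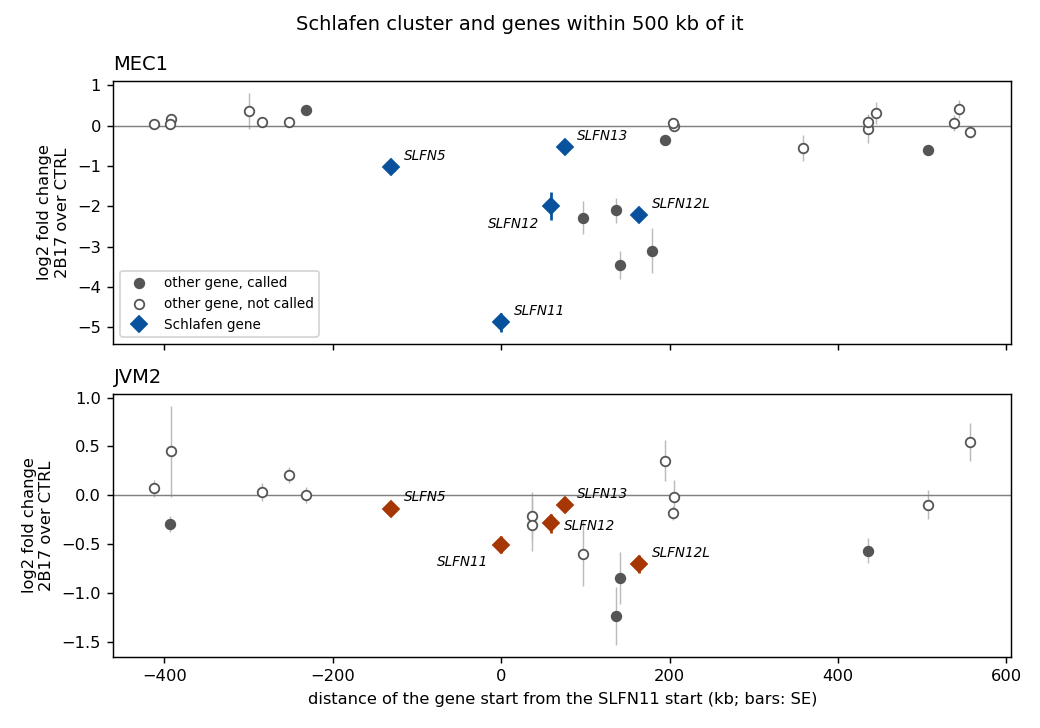
Fitted log2 fold change of 2B17 over CTRL (bars: SE) against the distance in kb of each gene's start from the *SLFN11* start, for tested genes within 500 kb of the cluster, with MEC1 above and JVM2 below on different vertical scales. Diamonds are the Schlafen genes, and filled or open circles are other genes with an edgeR adjusted p below 0.05 or not. The point of RP11-799D4.4 in MEC1 lies under that of *SLFN5*, at -1.02. Low values gather in and beside the cluster in MEC1, where outer protein-coding genes run from -0.60 to 0.39.

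Interferon-stimulated genes, a group to which several Schlafen genes belong, fell in both lines. Of 47 tested, 39 fell and 2 rose in MEC1, where 21.6% of all genes fell and 20.0% rose, and 36 fell and 1 rose in JVM2, where 15.3% fell and 14.1% rose. The list medians of the log2 fold change were -0.51 in MEC1 and -0.52 in JVM2, beside 0.0026 and 0.00012 over all genes tested. In MEC1 the deepest named falls were *RSAD2* (viperin) at -1.87 (SE 0.12), *PARP9* at -1.75 (SE 0.061) and *CMPK2* at -1.49 (SE 0.073). The MEC1 values of *SLFN11*, *SLFN12L* and the low-count *SLFN12* (-1.99, SE 0.35) lay below each of these, and the differences were not tested. In JVM2 the list reached deeper than the Schlafen genes. The antiviral gene *IFIT1* fell from 59.3 ± 1.8 to 6.70 ± 0.48 CPM (SD, n = 3), or by 3.15 (SE 0.092) on the log2 scale. *IFI27* had 43, 43 and 34 counts against 1, 0 and 3, a ratio of 28.6 (10.9 to 107), and *CMPK2* a ratio of 14.8 (6.96 to 37.8), whereas the deepest Schlafen value was -0.70. *MX2* rose in both lines, by 0.12 and 0.26 on the log2 scale, and *ISG20* rose by 0.48 in MEC1.

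Of 12 genes of interferon signalling, 6 fell and 1 rose in MEC1, where 21.6% of all genes fell, and 7 fell and 1 rose in JVM2, where 15.3% fell. *USP18*, a negative regulator of the receptor, fell by 0.44 (SE 0.045) in MEC1 and by 0.97 (SE 0.097) in JVM2 on the log2 scale, and the kinase *JAK1* rose by 0.32 and 0.62. *IRF9* fell by 0.30 in MEC1 and *IRF1* by 0.60 in JVM2.

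Proposed regulators of *SLFN11* transcription were a further list. Of 16 tested, 6 fell and 2 rose in MEC1, where 41.7% of all genes were called, and 6 fell and 1 rose in JVM2, where 29.3% were. In JVM2, 5 fell with RLE scaling, and 5 fell and 0 rose with DESeq2. *FLI1*, an ETS factor known to activate *SLFN11*, read 93.6 ± 2.7 CPM in MEC1-CTRL and 92.3 ± 4.0 in MEC1-2B17, with a log2 fold change of -0.02 (SE 0.038) that did not pass the test. In JVM2, *FLI1* fell from 62.9 ± 2.8 to 31.4 ± 2.9 CPM, a drop in which the log2 level fell by 0.999 (SE 0.081). The part of *FLI1* in the *SLFN11* values was not tested. *ETS1* rose by 0.23 (SE 0.037) in MEC1 on the log2 scale. *SPI1* fell in both lines, by 0.31 and 0.58, and *ELF1* fell by 0.24 and the DNA methyltransferase *DNMT3A* by 0.21 in MEC1. The histone deacetylase *HDAC2* fell by 0.31 in JVM2.

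Replication fork and checkpoint genes, which act where SLFN11 acts, showed no common direction in MEC1. In JVM2 more fell than rose, and most were not called. The list medians of the log2 fold change were -0.0024 in MEC1 and -0.096 in JVM2, beside 0.0026 and 0.00012 over all genes tested. Of 29 tested, 4 rose and 5 fell in MEC1, beside 20.0% and 21.6% of all genes, and 2 rose and 6 fell in JVM2, beside 14.1% and 15.3%. Without JVM2-2B17 replicate 2, 10 fell in JVM2, where 4540 genes were called in all, beside 3821 with every library. *CDT1*, a licensing factor that SLFN11 is known to bring to degradation, rose by 0.52 (SE 0.046) in MEC1 and fell by 0.33 (SE 0.074) in JVM2 on the log2 scale. *CLSPN*, the checkpoint mediator claspin, fell by 0.22 and 0.58. Of 17 targets of DNA-damaging drugs and repair genes, 5 rose and 5 fell in MEC1, and 3 rose and 3 fell in JVM2, where 41.7% and 29.3% of all genes were called in either direction. *TOP1*, the target of camptothecins, fell by 0.19 and 0.36, *TOP2A* fell by 0.22 in MEC1, *CHEK2* rose by 0.36 in MEC1 and *ATM* rose by 0.50 in JVM2. *PDE3A*, the partner of SLFN12, was in neither table. *PDE3B*, a related phosphodiesterase, rose by 0.16 (SE 0.042) on the log2 scale in MEC1 and had 2 to 7 counts per library in JVM2.

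**Figure D5:**
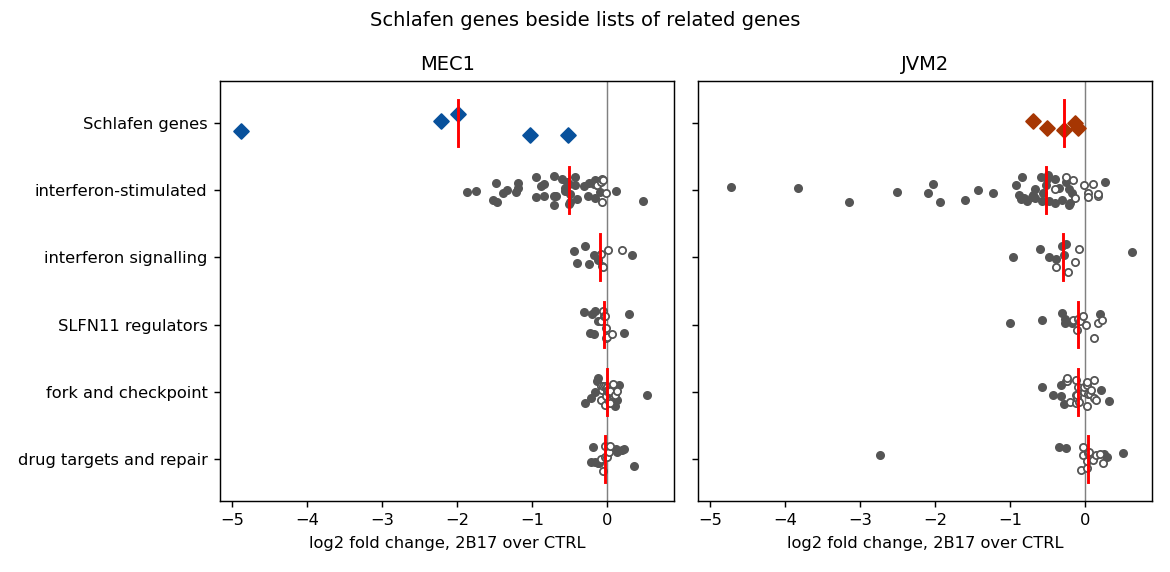
Fitted log2 fold change of 2B17 over CTRL in MEC1 and JVM2 for the 5 Schlafen genes (diamonds) and the tested genes of 5 related lists, with filled circles where the edgeR adjusted p was below 0.05 and red bars at the medians. Interferon-stimulated genes centre at -0.51 and -0.52, and the fork and drug target lists centre near 0.

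Genes whose pattern over the 4 populations was most like that of each Schlafen gene were ranked by the root mean square difference of log2 CPM, centred on each gene's own mean, over 12242 genes. The nearest to *SLFN11* were *CASK*, a scaffold kinase, at a distance of 0.395, *SORT1*, the sorting receptor sortilin, at 0.510 and *ZNF711*, a zinc finger factor, at 0.619. These had log2 fold changes of -3.54, -4.06 and -3.72 in MEC1, and -0.09, -0.01 and 0.11 in JVM2, where *SLFN11* had -0.51. The nearest to *SLFN5* was *PARP14*, an interferon-stimulated gene, at 0.0638, with -1.19 in MEC1 and -0.18 in JVM2. Close behind came *PDCD1* at 0.0877 and *STAP1* at 0.089, which are not on the list of interferon-stimulated genes. These had -1.13 and -1.05 in MEC1, and 0.03 and -0.39 in JVM2. The nearest to *SLFN12L* was RP11-686D22.10 at 0.0357, whose reads it may share, followed by *PRICKLE1* at 0.175. For *SLFN12* it was *CST3* (cystatin C) at 0.151, and for *SLFN13* it was LINC00511 at 0.0738.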

How the data were processed

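RNA from 12 samples, 3 replicates of each of 4 populations, was sequenced. Per the labels and methods, the authors trimmed reads with Trimmomatic, aligned them to hg38 with TopHat2 2.0.14 and counted them per gene with HTSeq, and deposited raw counts in 1 table per line. Each table lists genes whose counts sum to at least 10 over 6 libraries. The 12 columns of values normalized by the authors and their columns of fold change, average level and p-value were not used.

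Counts were tested in each line separately with edgeR 4.0.16 (R 4.3.3), using TMM scaling, filterByExpr (minimum count 10, minimum total 15), the quasi-likelihood test and Benjamini-Hochberg adjustment over all genes tested, with a threshold of 0.05. The script was tested on simulated data. Levels were divided by merged exon length in GENCODE 44. Alternatives were RLE or no scaling, DESeq2 1.42.0, edgeR's exact test, both tools together, other filters, a replicate block, and leaving out each library. Single genes were tested by an exact permutation test over samples (scipy 1.17.1). Counting intervals are exact at 95% and cover counting error only. Deeper MEC1 libraries give more precise low values.

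The members and lists were chosen with earlier results of these data known. Named genes were the members and their relatives, tested neighbours within 500 kb, up to 3 top rises and falls per list and line among called genes whose average log2 CPM was 1 or more, and the nearest patterns. For MEC1, *FLI1* was named after its values were seen. Some genes that this rule names are not reported here.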

Additional observations from a re-analysis of the deposited data

Results flagged for a closer look

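For 7 genes of the lists, every 2B17 library of 1 line lay above its controls and every 2B17 library of the other line lay below, and the difference between the lines was not tested. The log2 fold changes were 0.48 in MEC1 and -0.59 in JVM2 for *ISG20*, an interferon-stimulated exonuclease. They were 0.52 and -0.33 for the licensing factor *CDT1*. The phosphatase *CDC25A* had 0.16 and -0.32, and the replicative helicase subunit *MCM7* had 0.13 and -0.11, the latter short of the test (edgeR adjusted p = 0.128). *MGMT*, which removes alkyl groups from guanine, had 0.22 and -2.73, the latter from 19, 18 and 14 counts against 1, 3 and 3 in JVM2 (ratio 6.94, 95% counting interval 3.14 to 18.1). *RBBP4*, a histone-binding subunit of chromatin complexes, had 0.29 and -0.094, the latter also short of it (edgeR adjusted p = 0.184). The histone deacetylase *HDAC3* had -0.18 and 0.20. None of the 5 Schlafen genes showed opposite directions.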

How the results depend on the processing

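No result of the alternatives run reversed its direction. Changed genes numbered 6909 in MEC1 and 3821 in JVM2, and 5936 to 6606 and 2687 to 4540 when 1 library was left out. The 3 Schlafen genes called in JVM2 became 2 to 5 with 1 library left out, 5 of them without JVM2-2B17 replicate 2, where 4540 genes were called in all. Without MEC1-CTRL replicate 3 or JVM2-2B17 replicate 2, an alternative chosen after seeing the data, 9 and 4 neighbours were called, and each list's count of calls stayed within 1.5 times. With a replicate block, 6897 and 4236 genes and 3 Schlafen genes were called. Same-numbered replicates had correlations of -0.038, -0.0044 and 0.039 in MEC1 and 0.079, 0.11 and -0.0041 in JVM2, so the numbers were not taken to pair samples. With a window of 250 kb, the 4 neighbours called in JVM2 became 2, since fewer genes were tested. Dividing by the longest transcript in place of merged exons, which is shorter, moved levels in CPM per kilobase. In MEC1-CTRL they became 0.838 for *SLFN11*, 0.228 for *SLFN12* and 1.70 for *SLFN13*, and in MEC1-2B17 0.0558 for *SLFN12* and 1.18 for *SLFN13*. In JVM2-CTRL they became 5.63 for *SLFN11*, 7.95 for *SLFN12*, 1.73 for *SLFN12L* and 12.2 for *SLFN13*, and in JVM2-2B17 3.97 for *SLFN11*, 6.50 for *SLFN12* and 11.3 for *SLFN13*. Under 20 counts per library, as for *SLFN11* and *SLFN12* in MEC1-2B17, counting error limits the size of a fold.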
